A study of Mus musculus with 37 samples.

Results

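The 37 genes described here encode enzymes of the citric acid cycle, the steps that feed acetyl-CoA into it, the malate-aspartate shuttle, branched-chain amino acid catabolism and ketone body use. They are the rows of the deposited expression table that carry these gene symbols. All 37 were found among 56748 genes listed. Values are FPKM, fragments on a gene scaled to its length and to the library's size, and all 37 were among the 16530 genes tested, those that reached 0.5 FPKM in 4 or more libraries. By role, 4 encode the pyruvate dehydrogenase complex, 16 the citric acid cycle, 3 the shuttle, 11 branched-chain catabolism and 3 ketone body use.

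The citric acid cycle oxidises acetyl-CoA in the mitochondrial matrix and passes electrons to the respiratory chain. In heart muscle the acetyl-CoA comes mainly from fatty acids, and also from pyruvate, ketone bodies and the branched-chain amino acids leucine, isoleucine and valine, whose carbon enters as acetyl-CoA or succinyl-CoA. Pyruvate dehydrogenase and the branched-chain ketoacid dehydrogenase are each switched off by a kinase and on by a phosphatase, and the malate-aspartate shuttle carries the electrons of cytosolic NADH into the matrix.

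Bulk RNA sequencing was done on left ventricular tissue of male and female C57BL/6J mice aged 8 to 10 weeks, all anaesthetised with isoflurane. Naïve mice (5 libraries) had anaesthesia only. Adr mice (4 libraries at each of 0.5, 1, 3 and 7 d), which the labels call sham, had saline and then adrenaline injected into the left ventricle. Arrest mice (4 libraries at each of the same times) were brought into asystole by potassium chloride and revived by adrenaline and chest compressions. Adrenaline was thus common to both injected groups, which were also intubated and ventilated. Naïve mice had neither injection nor intubation, and their tissue was taken after imaging without the recovery time of the other groups. The comparisons ask how far expression moved from the Naïve level at each time, and whether Arrest differed from adrenaline alone. No mouse carried a genetic change, and in bulk tissue fewer cells of a type and less RNA per cell cannot be told apart.

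The libraries held about 13197000 to 30179900 fragments on genes, and the fewest fragments behind any member value were 241, for Bckdha in Adr replicate 3 at 3 d. All 10 cardiomyocyte markers were detected, and their summed level ran from 11369 to 23986 FPKM in 36 libraries and was 4654 FPKM in Adr replicate 3 at 3 d. In that library, called here the low library, macrophage and monocyte markers summed to 3068 FPKM against at most 1477 FPKM elsewhere, fibroblast markers to 1312 FPKM against at most 832 FPKM, and transcripts of the mitochondrial genome took 9.36% of fragments against 20.8% or more. The counts of called members are therefore given with and without it. The part that cell makeup or RNA quality played in that library was not tested.

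**Figure D1:**
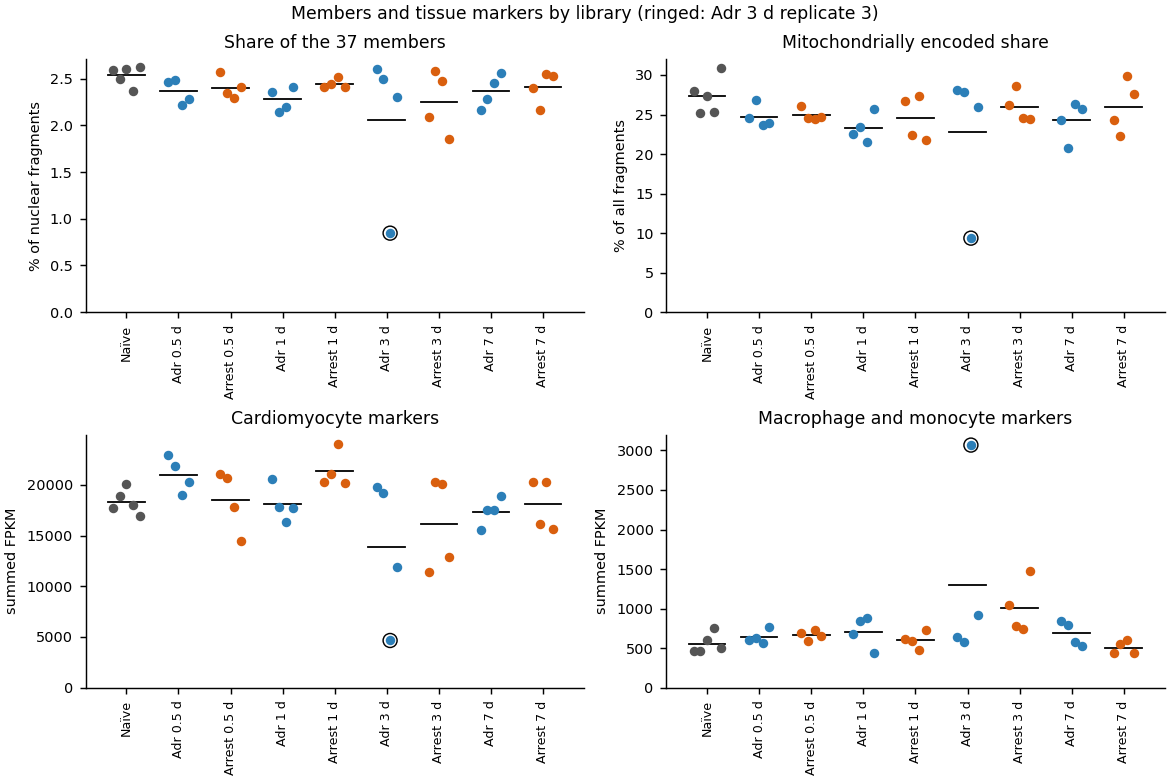
Each point is 1 library and each line a group mean, for the share of nuclear fragments on the 37 members, the share of fragments on the mitochondrial genome, and the summed FPKM of 10 cardiomyocyte and 10 macrophage and monocyte markers. The ringed library, Adr replicate 3 at 3 d, had 0.846% of its nuclear fragments on the members, and its cardiomyocyte sum was the lowest and its macrophage sum the highest of the 37 libraries.

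Upstream sequences of 3 members are shown: Got1 and Ppm1k, which are among the members described in full below, and Sdha, which held 3 matches in 1 window. They are the 250 bases before the gene start in RefSeq, build GRCm38.p6, read 5′ to 3′ on the gene's own minus strand, with motif matches in capitals. The window of Got1 is chr19:43524606-43524855, that of Ppm1k chr6:57535488-57535737 and that of Sdha chr13:74350241-74350490.
Got1: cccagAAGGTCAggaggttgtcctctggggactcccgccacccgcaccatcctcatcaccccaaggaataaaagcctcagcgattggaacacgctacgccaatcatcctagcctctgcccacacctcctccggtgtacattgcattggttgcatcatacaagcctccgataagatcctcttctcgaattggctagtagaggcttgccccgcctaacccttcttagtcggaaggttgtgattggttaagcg
Ppm1k: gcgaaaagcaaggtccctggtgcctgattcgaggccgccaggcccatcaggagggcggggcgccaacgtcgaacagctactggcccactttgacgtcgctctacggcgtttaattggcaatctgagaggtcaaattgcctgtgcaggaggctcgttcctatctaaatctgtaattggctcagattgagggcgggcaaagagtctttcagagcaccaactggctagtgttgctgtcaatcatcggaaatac
Sdha: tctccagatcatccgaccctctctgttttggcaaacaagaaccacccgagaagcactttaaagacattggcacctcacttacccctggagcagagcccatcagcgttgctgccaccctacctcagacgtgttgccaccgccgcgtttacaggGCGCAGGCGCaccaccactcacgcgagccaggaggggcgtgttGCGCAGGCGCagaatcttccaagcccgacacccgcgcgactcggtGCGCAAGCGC
Motifs searched on both strands were AAGGTCA (bound by estrogen-related receptors), the 10-letter NRF1 motif, CCGGAAG (GABP) and CACGTG (the E-box). None of these contains another. Windows were found for 33 of the 37 members (not Idh3a, Dbt, Sdhc and Acat1). AAGGTCA was in 1 of the 33, Got1, or 3.03% against 4.70% of 27025 genes. The NRF1 motif was in 4 (Sdha, Sdhd, Sucla2 and Pccb), or 12.1% against 4.23% of all genes. CCGGAAG was in 2 (Sdhd and Idh3g), 6.06% against 7.83%, and CACGTG in 2 (Ogdh and Mccc2), 6.06% against 6.86%. Sdha held the NRF1 motif 3 times, and the Ppm1k window held none of the 4 motifs.

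In Naïve hearts the members were abundant transcripts, with a median level of 122 FPKM against 2.62 FPKM over all genes tested. Mdh1, the cytosolic malate dehydrogenase of the shuttle, led with 633 ± 24.5 FPKM (mean ± SD, n = 5). Idh2, the NADP-dependent isocitrate dehydrogenase of mitochondria, followed with 514 ± 23.3 FPKM, then Sdhb, the iron-sulfur subunit of succinate dehydrogenase, with 354 ± 18.5 FPKM. The 16 cycle genes had a median Naïve level of 154 FPKM and the 11 branched-chain genes one of 22.7 FPKM. Mccc1, the biotin-carrying subunit of methylcrotonyl-CoA carboxylase in leucine breakdown, was lowest at 7.79 ± 0.60 FPKM.

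The low library was the lowest of all 37 libraries for each of the 37 members. Its levels ran from 18.8% of the Naïve mean for Bckdha to 55.7% for Bcat2, with a median of 29.0%. Its members' median lay 1.66 log2 units below the Naïve mean, where the other 36 libraries lay between -0.46 and 0.17. Arrest replicate 4 at 3 d was the next lowest, with 0 of 37 members above the Naïve mean and a cardiomyocyte marker sum of 12868 FPKM. That sum was lower in Arrest replicate 1 (11369 FPKM) and Adr replicate 4 (11944 FPKM) at 3 d, where 7 and 12 of 37 members lay above the Naïve mean.

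**Figure D2:**
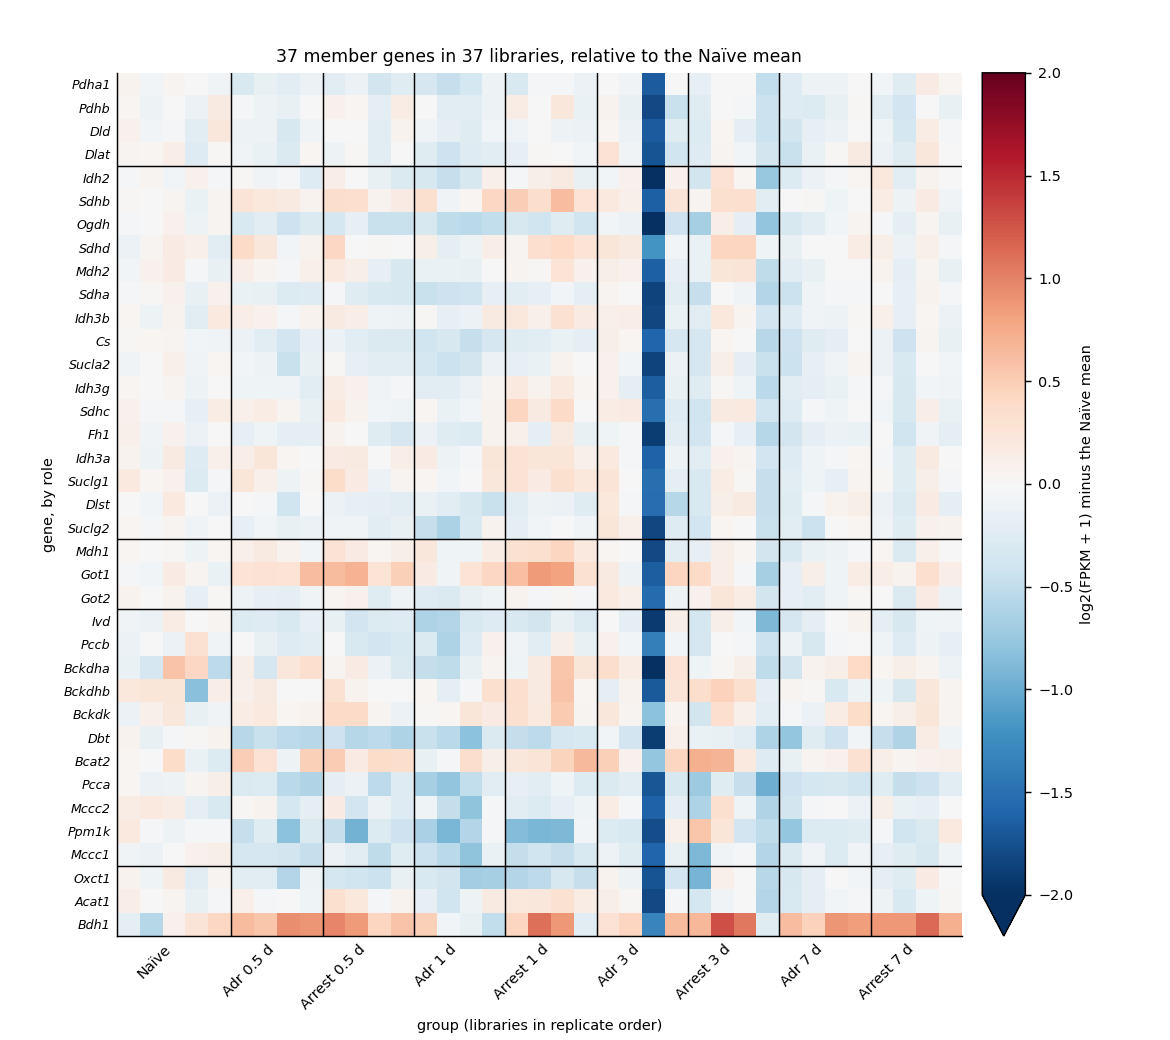
Each cell is 1 gene (rows, by role and then Naïve level) in 1 library (columns, by group and replicate), coloured by log2(FPKM + 1) minus the Naïve mean from -2 (blue, lower values clipped) to 2 (red). The third Adr column at 3 d is blue in all 37 rows, while elsewhere Got1, Sdhb and Bdh1 have mostly red and Dbt, Mccc1, Ogdh and Pcca mostly blue cells in the early groups.

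With all 37 libraries in the fit, 0 of the 37 members passed an adjusted p of at most 0.05 in any of the 14 comparisons, and the lowest adjusted p was 0.103, for Got1 in Arrest at 1 d against Naïve (limma). Against Naïve the test called 3.21% of all genes in Arrest at 0.5 d, 7.11% at 1 d, 0.139% at 3 d and 0% at 7 d. It called 0.188% in Adr at 0.5 d, 0.69% at 1 d and 0% at 3 and 7 d. Arrest against Adr at the same time gave 0% at 0.5, 1 and 3 d and 0.00605% at 7 d, and Arrest at 1 d gave 0.175% against Arrest at 3 d and 1.89% against Arrest at 7 d. Without adjustment, members with p up to 0.05 numbered 3 in Arrest at 0.5 d (18.2% of all genes), 4 at 1 d (21.7%), 2 at 3 d (13.7%) and 1 at 7 d (5.15%). In Adr they counted 3 at 0.5 d (14% of all genes), 6 at 1 d (14.7%), 18 at 3 d (13.9%) and 1 at 7 d (6.15%), and the 18 at 3 d, all lower, became 1 without the low library. Between Arrest and Adr they counted 0 at 0.5 d (3.86%), 0 at 1 d (6.59%), 2 at 3 d (5.37%) and 0 at 7 d (2.52%), and for Arrest at 1 d they counted 4 against 3 d (12.2%) and 0 against 7 d (14.9%).

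Without the low library the fold changes of every comparison that does not use Adr at 3 d stayed as they were, and their standard errors shrank. The count of members called became 2 in Arrest at 0.5 d (Got1 higher, Dbt lower), 6 at 1 d (Got1, Sdhb and Mdh1 higher, Ppm1k, Oxct1 and Mccc1 lower) and 1 at 3 d (Pcca lower). The test then called 5.51%, 10.3% and 1.13% of all genes at those times and 0% at 7 d. In Adr it became 4 at 1 d (Pcca, Ogdh, Dbt and Mccc1, all lower), where 2.52% of all genes were called, and 0 at 0.5 d (1.35% of all genes), 3 d (0%) and 7 d (0%). Arrest at 1 d gave 3 members against Arrest at 3 d (Got1, Acat1 and Mdh1, 1.7% of all genes) and 1 against Arrest at 7 d (Sdhb, 3.96%), all higher at 1 d. Arrest against Adr gave 0 members and 0% of all genes at each of the 4 times. Where 0 members were called, those with an unadjusted p up to 0.05 numbered 2 in Arrest at 7 d (5.95% of all genes), and in Adr 8 at 0.5 d (16.1%), 1 at 3 d (7.28%) and 3 at 7 d (7.2%). For Arrest against Adr they numbered 0 at 0.5 d (4.68%), 10 at 1 d (8.45%), 2 at 3 d (5.67%) and 0 at 7 d (3.15%). With the number in each library's description as a covariate, whose meaning the labels do not give, the call of Acat1 was the only 1 of these that remained. That number ran from 116 to 127 in Naïve hearts, 70 to 95 in Arrest at 1 d and 71 to 102 in Adr at 1 d. Number and group were thus confounded there, and the fit could hardly tell them apart. With only the 2 groups compared in the fit, the calls of Ppm1k in Arrest at 1 d, Pcca in Arrest at 3 d, all 4 members in Adr at 1 d and those of Arrest at 1 d against 3 and 7 d were lost (adjusted p 0.0575 for Ogdh to 0.366 for Got1), and the other 7 remained. Dbt, Sdhb, Mdh1, Oxct1 and Acat1 are described in full because of these calls and so were singled out after their values were seen.

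Member directions were mixed in Arrest at 0.5 and 1 d and mostly below 0 at 3 and 7 d. Their median log2 fold change against Naïve was -0.05 in Arrest at 0.5 d (15 of 37 above 0), 0.01 at 1 d (19 of 37), -0.17 at 3 d (6 of 37) and -0.05 at 7 d (8 of 37). In Adr it was -0.11 at 0.5 d (14 of 37), -0.19 at 1 d (8 of 37), -0.43 at 3 d (2 of 37) and -0.11 at 7 d (6 of 37), and the value at 3 d became -0.02 (17 of 37) without the low library. The median of all genes tested stayed between 0.00 and 0.04 in these comparisons. Single Arrest libraries at 3 d differed, with 7, 30, 17 and 0 of 37 members above the Naïve mean in replicates 1 to 4. At 7 d these counts were 14, 5, 27 and 11. Quantile normalization turned the Arrest median at 1 d to -0.23, with all genes at -0.02, so no direction of the whole set is given there.

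The malate-aspartate shuttle held the clearest difference. Got1 encodes the cytosolic aspartate aminotransferase, and its Naïve libraries read 232, 228, 266, 245 and 216 FPKM. Arrest libraries read 367, 386, 286 and 331 FPKM at 0.5 d and 360, 426, 415 and 292 FPKM at 1 d, all above the highest Naïve library. At 3 d they read 309, 258, 232 and 148 FPKM and at 7 d 259, 248, 300 and 260 FPKM, both overlapping Naïve. Adr libraries read 286, 290, 286 and 364 FPKM at 0.5 d, also all above Naïve, and 264, 227, 285 and 314 FPKM at 1 d, which overlapped it. In Arrest the log2 fold change of Got1 was 0.52 (SE 0.24) at 0.5 d and 0.64 (SE 0.24) at 1 d, with adjusted p of 0.243 and 0.103. Without the low library the SE was 0.15 and the adjusted p 0.0358 and 0.00615. The call at 1 d was kept without any 1 of its 9 libraries (adjusted p 0.00245 to 0.0340), while the call at 0.5 d was kept in 2 of 9, those without Naïve replicate 3 or Arrest replicate 3 (adjusted p up to 0.138 in the others). Under quantile normalization the value at 1 d was 0.35 with an adjusted p of 0.0911.

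Got1 at 1 d also exceeded Arrest at 3 d by 0.69 (SE 0.16, adjusted p 0.0192 without the low library, 0.249 with it). That call was lost (adjusted p up to 0.107) without any 1 of Arrest replicates 1, 2 and 3 at 1 d or replicate 4 at 3 d. Mdh1 read 650, 629, 641, 592 and 652 FPKM in Naïve hearts and 783, 787, 849 and 720 FPKM in Arrest at 1 d, all above Naïve. Its log2 fold change was 0.31 (SE 0.10, adjusted p 0.0428 without the low library, and with it SE 0.21 and adjusted p 0.421). That call was kept in 1 of 9 fits that left out 1 library more, the fit without Arrest replicate 4 (adjusted p up to 0.147 in the others), and under quantile normalization the fold change was 0.02. Mdh1 exceeded Arrest at 3 d, at 566, 684, 651 and 488 FPKM, by 0.40 (adjusted p 0.0399 without the low library, 0.489 with it), a call lost without any 1 of Arrest replicates 1, 2 and 3 at 1 d or 1 and 4 at 3 d (adjusted p up to 0.167). Got2, the mitochondrial aminotransferase, stayed near its Naïve mean of 134 ± 8.76 FPKM, with group means from 117 ± 8.16 FPKM in Adr at 1 d to 141 ± 14.5 FPKM in Adr at 3 d without the low library.

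**Figure D3:**
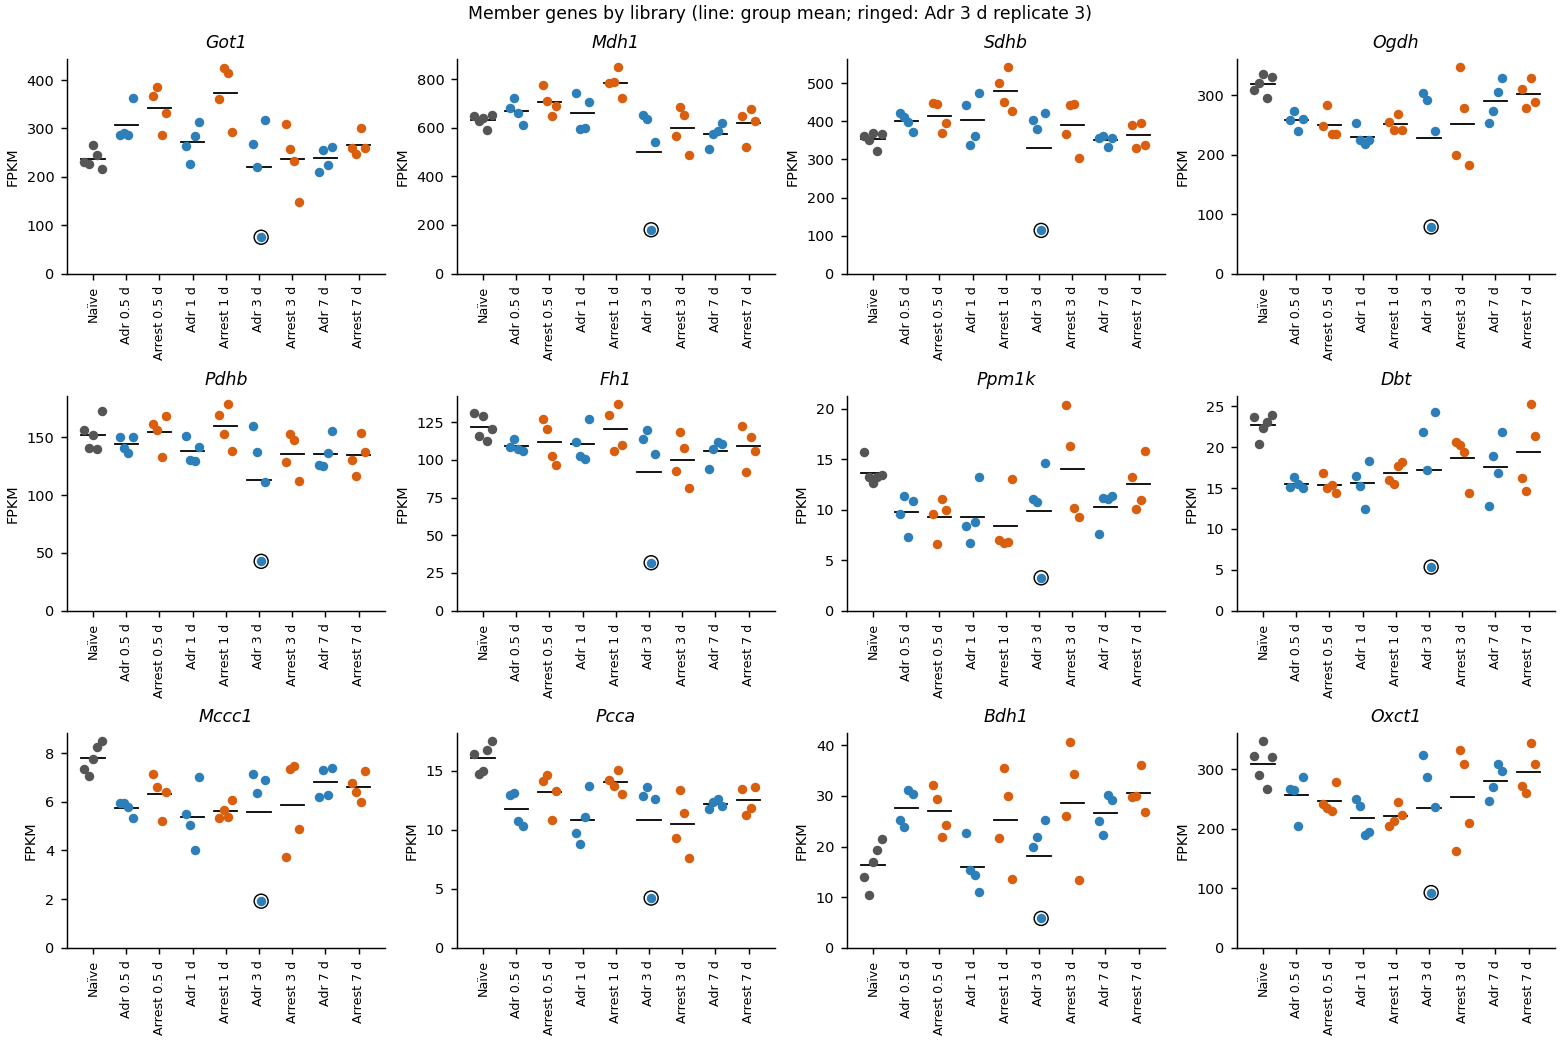
Each point is the FPKM of 1 gene in 1 library (grey Naïve, blue Adr, orange Arrest), each line a group mean and the ring Adr replicate 3 at 3 d. Got1, Mdh1 and Sdhb are highest in Arrest at 1 d, most libraries of Dbt, Mccc1 and Pcca at 0.5 and 1 d lie below the Naïve range, and most group means of Bdh1 lie above the Naïve mean.

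Among the 16 cycle genes, 1 passed the test in Arrest at 1 d and 1 in Adr at 1 d, both only without the low library. Sdhb libraries read 361, 352, 369, 323 and 366 FPKM in Naïve hearts and 500, 452, 543 and 428 FPKM in Arrest at 1 d, with no overlap. Arrest libraries at 0.5 d read 450, 446, 370 and 396 FPKM, just above Naïve, and at 7 d 392, 330, 395 and 338 FPKM, which overlapped it. The log2 fold change of Sdhb at 1 d was 0.44 (SE 0.22, adjusted p 0.242 with all libraries; SE 0.11, adjusted p 0.00810 without the low library), and it was kept in 9 of 9 fits that left out 1 library more. Against Arrest at 7 d it was 0.40 (SE 0.11, adjusted p 0.0361), a call lost without any 1 of Arrest replicates 1, 2 and 3 at 1 d or 2 and 4 at 7 d (adjusted p up to 0.161). Quantile normalization brought the Sdhb fold change at 1 d to 0.07.

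Ogdh, the first subunit of 2-oxoglutarate dehydrogenase and a control point of the cycle, went the other way. It read 309, 322, 336, 296 and 331 FPKM in Naïve hearts, 254, 225, 219 and 226 FPKM in Adr at 1 d and 255, 241, 268 and 242 FPKM in Arrest at 1 d. Both injected groups lay below the lowest Naïve library at 1 d and also at 0.5 d. The log2 fold change was -0.47 in Adr at 1 d (SE 0.22, adjusted p 0.329; SE 0.12, adjusted p 0.0373 without the low library) and -0.34 in Arrest at 1 d (adjusted p 0.403 and 0.0707). The Adr call was kept in 2 of 9 fits that left out 1 library more (adjusted p up to 0.109), those without Adr replicate 1 or Naïve replicate 4. At 3 d Adr libraries read 305, 292, 78.6 and 240 FPKM, and the log2 fold change of -0.65 became -0.20 without the third, the low library. At 7 d Ogdh read 254 to 330 FPKM in Adr and 279 to 329 FPKM in Arrest, overlapping Naïve.

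Pdhb, the beta subunit of pyruvate dehydrogenase, and Fh1, fumarate hydratase, were among the 8 members with the lowest unadjusted p only through Adr at 3 d. Pdhb read 160, 137, 42.6 and 111 FPKM there against 156, 141, 152, 139 and 173 FPKM in Naïve hearts. Fh1 read 114, 120, 31.8 and 104 FPKM against 131, 116, 129, 112 and 120 FPKM. The third value of each Adr group is the low library, without which the log2 fold change went from -0.58 to -0.17 for Pdhb and from -0.56 to -0.11 for Fh1. Neither was called with or without it (adjusted p 0.210 and 0.240 with it, 0.796 and 0.880 without).

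The other cycle and pyruvate dehydrogenase genes had no adjusted p up to 0.05 with or without the low library, and their group means leave it out. Citrate synthase, Cs, had 172 ± 6.56 FPKM in Naïve hearts and its lowest group mean, 132 ± 6.27 FPKM, in Adr at 1 d. Idh2 ranged from 436 ± 77.8 FPKM in Adr at 1 d to 528 ± 27.4 FPKM in Adr at 3 d, and single Arrest libraries at 3 d ran from 305 to 631 FPKM. Sdha, the catalytic subunit of succinate dehydrogenase, had 251 ± 16.7 FPKM in Naïve hearts and 197 ± 18.8 FPKM in Adr at 1 d. Its membrane anchors Sdhc and Sdhd had their highest group means in Arrest at 1 d, 149 ± 20.3 FPKM and 344 ± 35.2 FPKM, against 126 ± 10.4 FPKM and 287 ± 31.3 FPKM in Naïve hearts.

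The subunits of the NAD-dependent isocitrate dehydrogenase each had their highest group mean in Arrest at 1 d. Idh3a had 118 ± 6.57 FPKM there and 102 ± 12.2 FPKM in Naïve hearts. Idh3b had 213 ± 12.9 FPKM and 186 ± 20.1 FPKM, and Idh3g 148 ± 8.86 FPKM and 135 ± 5.35 FPKM. Suclg1, the alpha subunit of succinyl-CoA synthetase, had 73.5 ± 3.71 FPKM in Arrest at 1 d and 62.0 ± 7.38 FPKM in Naïve hearts. Its ATP-forming partner Sucla2 had 136 ± 6.96 FPKM in Naïve hearts and 109 ± 10.8 FPKM in Adr at 1 d, and its GTP-forming partner Suclg2 33.5 ± 1.26 FPKM and 26.9 ± 5.99 FPKM. Mdh2, the matrix malate dehydrogenase, ranged from 239 ± 12.4 FPKM in Adr at 1 d to 277 ± 22.7 FPKM in Arrest at 1 d, around a Naïve mean of 256 ± 22.5 FPKM.

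Of the remaining subunits, Dlst of 2-oxoglutarate dehydrogenase had 49.3 ± 4.20 FPKM in Naïve hearts and its lowest group mean, 40.5 ± 4.01 FPKM, in Adr at 1 d. Pdha1 and Dlat of pyruvate dehydrogenase had 165 ± 7.36 FPKM and 67.1 ± 6.57 FPKM in Naïve hearts and were also lowest in Adr at 1 d, at 133 ± 14.2 FPKM and 54.9 ± 3.49 FPKM. Dld, the subunit these complexes share, had 103 ± 12.4 FPKM in Naïve hearts and was lowest in Arrest at 3 d at 89.0 ± 12.4 FPKM. With the low library set aside, Adr at 1 d held the lowest of the 8 injected group means for 19 of the 37 members and Arrest at 1 d the highest for 17. The same count was not made over all genes, and members share libraries, so it is a description and not a trait of these members.

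The 11 branched-chain members had a median log2 fold change of -0.25 in Arrest at 0.5 d, -0.18 at 1 d and -0.20 at 3 d, and of -0.35 in Adr at 1 d. The 16 cycle members had medians of -0.06, 0.07 and -0.17 in Arrest at those times and -0.14 in Adr at 1 d, and the difference between the roles was not tested. Ppm1k encodes the phosphatase that switches the branched-chain ketoacid dehydrogenase on. Its Naïve libraries read 15.7, 13.2, 12.6, 13.2 and 13.4 FPKM and the Arrest libraries at 1 d 6.96, 6.72, 6.80 and 13.1 FPKM. Arrest replicates 1 to 3 stood near 1 low value and replicate 4 in the Naïve range. The log2 fold change was -0.69 (SE 0.26, adjusted p 0.107; SE 0.21, adjusted p 0.0295 without the low library). That call was kept in 5 of 9 fits that left out 1 library more and lost (adjusted p up to 0.109) without Arrest replicate 1, 2 or 3 or Naïve replicate 1. It was also lost with no filter on low values (0.0597) and with only the Arrest and Naïve groups in the fit (0.0668). Ppm1k in Adr at 1 d read 6.72 to 13.2 FPKM with a median of 8.55 FPKM, and its highest library lay in the Naïve range. At 0.5 d all 8 injected libraries lay below Naïve, at 7.25 to 11.3 FPKM in Adr and 6.57 to 11.0 FPKM in Arrest. At 3 d Arrest libraries spread from 9.26 to 20.4 FPKM.

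Dbt, the core subunit of the branched-chain ketoacid dehydrogenase, read 23.7, 20.4, 22.3, 23.1 and 24.0 FPKM in Naïve hearts. It read 15.1, 16.4, 15.4 and 15.0 FPKM in Adr and 16.8, 15.0, 15.4 and 14.4 FPKM in Arrest at 0.5 d. At 1 d it read 16.5, 15.3, 12.4 and 18.3 FPKM in Adr and 16.0, 15.5, 17.7 and 18.2 FPKM in Arrest. All 16 of these libraries lay below the lowest Naïve library. Dbt differed from Naïve at 0.5 d by -0.53 (log2) in Arrest (adjusted p 0.212, and 0.0223 without the low library) and -0.52 in Adr (0.298 and 0.0512), and the Arrest call was lost without Arrest replicate 2 (0.0715) or replicate 4 (0.0567). At 1 d it was -0.52 in Adr (0.276 and 0.0408, kept in 2 of 9 fits that left out 1 library more, those without Adr replicate 4 or Naïve replicate 2) and -0.41 in Arrest (0.306 and 0.0565).

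Pcca, the biotin-carrying subunit of propionyl-CoA carboxylase, read 16.4, 14.7, 15.0, 16.8 and 17.5 FPKM in Naïve hearts. It read 9.75, 8.83, 11.1 and 13.7 FPKM in Adr at 1 d, 9.33, 13.4, 11.4 and 7.64 FPKM in Arrest at 3 d, and 12.9, 13.6, 4.21 and 12.6 FPKM in Adr at 3 d. Every injected group lay below the lowest Naïve library except Arrest at 1 d, which read 14.2, 13.7, 15.0 and 13.1 FPKM. The log2 fold change was -0.60 in Arrest at 3 d (SE 0.19, adjusted p 0.150; SE 0.12, adjusted p 0.0102 without the low library). It was -0.54 in Adr at 1 d (SE 0.19, adjusted p 0.161; SE 0.12, adjusted p 0.0152 without it). Without Arrest replicate 4 at 3 d the first was -0.47 with an adjusted p of 0.0568, and without Adr replicate 2 at 1 d the second was -0.46 with 0.0554. With only the 2 groups compared in the fit both were lost (0.321 and 0.128), and sample quality weights ended the first (0.0755). In Adr at 3 d the value was -0.64 with the low library and -0.28 without it (adjusted p 0.175 and 0.652). In Arrest at 3 d macrophage and monocyte markers summed to 746 to 1477 FPKM against 460 to 760 FPKM in Naïve hearts, with 10 of 10 markers above 0 in log2 fold change. Their part in the Pcca value was not tested.

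Mccc1 read 7.35, 7.05, 7.77, 8.27 and 8.50 FPKM in Naïve hearts, 5.50, 5.05, 4.03 and 7.01 FPKM in Adr at 1 d and 5.33, 5.65, 5.38 and 6.10 FPKM in Arrest at 1 d. Both groups at 1 d lay below Naïve, the Adr group narrowly. Mccc1 differed from Naïve by -0.47 (log2) in Adr (SE 0.20, adjusted p 0.244; adjusted p 0.0476 without the low library) and -0.41 in Arrest (SE 0.20, adjusted p 0.217; 0.0437 without it). The Adr call was kept in 1 of 9 fits that left out 1 library more, the fit without Adr replicate 4 (adjusted p up to 0.204 in the others). The Arrest call was kept in 2 of 9, those without Arrest replicate 4 or Naïve replicate 2 (up to 0.116). Its partner Mccc2 had 15.9 ± 2.57 FPKM in Naïve hearts and 12.4 ± 3.22 FPKM in Adr at 1 d, which overlapped.

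Not all branched-chain genes were lower. Bcat2, the mitochondrial aminotransferase that opens the pathway, read 19.7, 19.0, 24.8, 17.3 and 15.5 FPKM in Naïve hearts and 22.3, 22.8, 26.3 and 30.4 FPKM in Arrest at 1 d, and its difference of 0.39 on the log2 scale (SE 0.20, adjusted p 0.241 with all libraries, 0.120 without the low library) was not called. Bckdk, the kinase that switches the dehydrogenase off, had 23.6 ± 2.83 FPKM in Naïve hearts and its highest group mean, 28.7 ± 4.14 FPKM, in Arrest at 1 d (0.27, adjusted p 0.340, and 0.187 without the low library). The E1 subunits Bckdha and Bckdhb had 28.0 ± 9.61 FPKM and 26.5 ± 7.16 FPKM in Naïve hearts, and every other group mean lay within 1 such SD, the low library set aside. These Naïve SDs were wide, with Bckdhb at 13.8 FPKM in Naïve replicate 4, so that band says little about stability. Ivd, isovaleryl-CoA dehydrogenase, had 65.6 ± 4.83 FPKM in Naïve hearts and 48.3 ± 6.51 FPKM in Adr at 1 d. Pccb, the partner of Pcca, had 36.0 ± 4.83 FPKM and 29.9 ± 6.10 FPKM. None of these passed the test.

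The ketone body genes are described singly, and a difference between them was not tested. Bdh1, the 3-hydroxybutyrate dehydrogenase, read 14.02, 10.5, 17.0, 19.2 and 21.5 FPKM in Naïve hearts and 29.9, 29.9, 36.1 and 26.9 FPKM in Arrest at 7 d. The same gene read 25.3, 23.9, 31.2 and 30.4 FPKM in Adr at 0.5 d, 32.3, 29.5, 21.9 and 24.2 FPKM in Arrest at 0.5 d and 25.0, 22.3, 30.2 and 29.2 FPKM in Adr at 7 d. These 4 groups all lay above the highest Naïve library. Adr at 1 d, at 22.7, 15.3, 14.3 and 11.1 FPKM, did not, and neither did Arrest at 1 d nor either injected group at 3 d. The log2 fold change in Arrest at 7 d was 0.89 (SE 0.30, 95% interval 0.27 to 1.51), with an unadjusted p of 0.00610 and an adjusted p of 0.818, and 0.614 without the low library. Bdh1 thus passed no test in any comparison.

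Oxct1, the transferase that activates acetoacetate in heart muscle, read 323, 290, 348, 267 and 320 FPKM in Naïve hearts. It read 204, 213, 246 and 223 FPKM in Arrest and 250, 238, 189 and 194 FPKM in Adr at 1 d, both below Naïve. Oxct1 differed from Naïve by -0.48 (log2) in Arrest (adjusted p 0.204, and 0.0387 without the low library, kept in 2 of 9 fits that left out 1 library more, those without Naïve replicate 2 or 4). In Adr it was -0.51 (0.273 and 0.0622). Acat1, the mitochondrial thiolase, read 150, 152, 160 and 144 FPKM in Arrest at 1 d and 101, 123, 128 and 85.7 FPKM in Arrest at 3 d, with no overlap. That difference was 0.48 (SE 0.23, adjusted p 0.395; SE 0.11, adjusted p 0.0218 without the low library, and lost without any 1 of Arrest replicates 1, 2 and 3 at 1 d or 4 at 3 d, with adjusted p up to 0.111). Against the Naïve libraries, at 142, 129, 134, 116 and 127 FPKM, neither time was called.

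**Figure D4:**
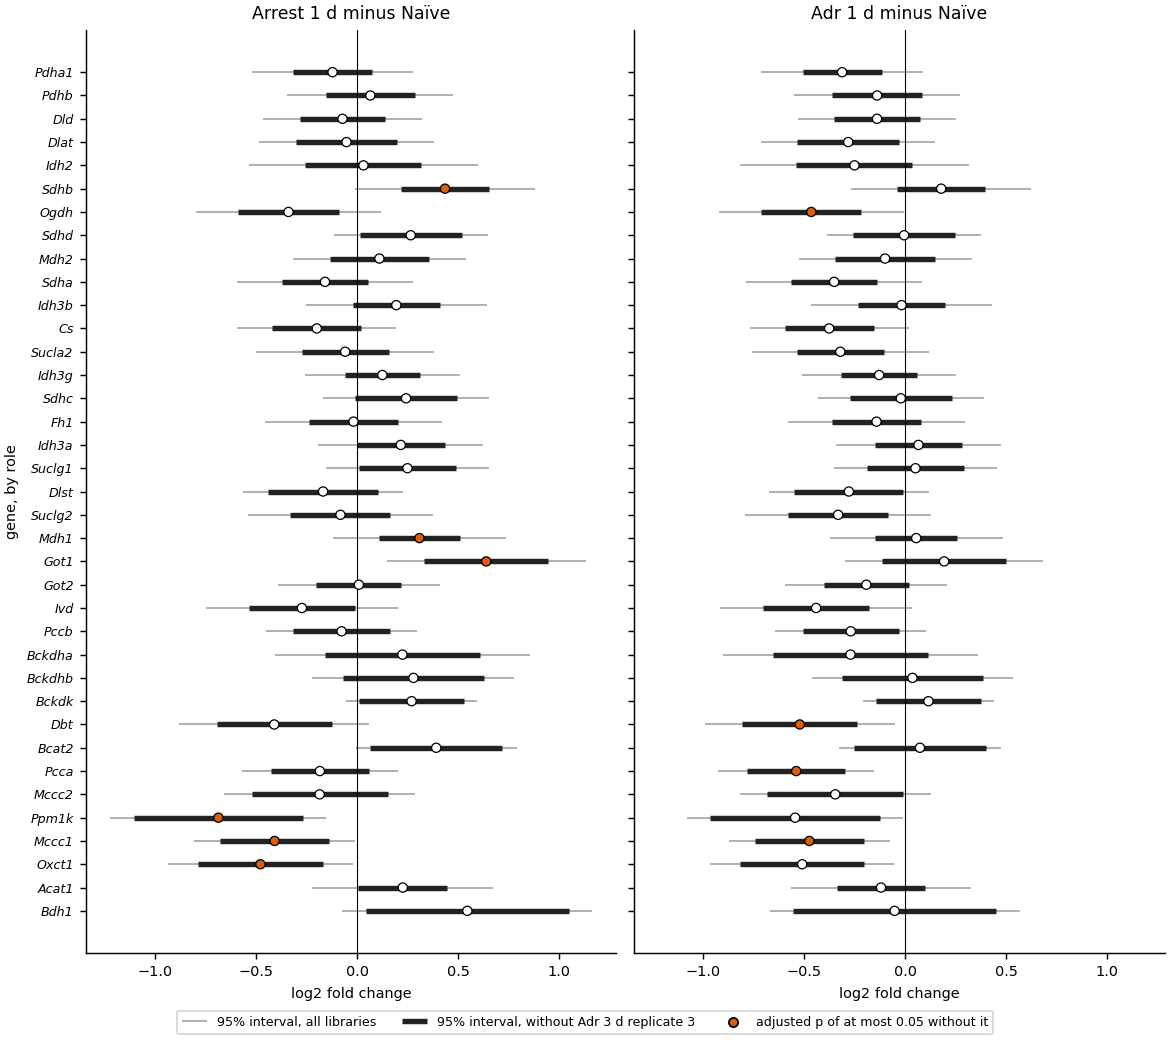
Points are the log2 fold changes of the 37 members against Naïve at 1 d, in Arrest (left) and Adr (right), with 95% intervals from the fit of all 37 libraries (thin grey) and without Adr replicate 3 at 3 d (thick black). Orange points passed the test without that library, 6 in Arrest and 4 in Adr.

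Arrest and Adr were not told apart for any member at any time. At 1 d the members' median difference, Arrest minus Adr, was 0.20 with 36 of 37 above 0, and all genes had a median of 0.00. Scaling by fragments on all genes brought the members' median to 0.070 and that of all genes to -0.09. Got1 differed by 0.45 (95% interval -0.07 to 0.96, adjusted p 0.795, and 0.12 to 0.77 with adjusted p 0.439 without the low library). Pcca differed by 0.36 (95% interval -0.05 to 0.76, adjusted p 0.789, and 0.10 to 0.61 with 0.435 without it). At 3 d the median difference was 0.27 with 37 of 37 above 0, and without the low library it was -0.15 with 6 of 37 above 0, so its sign came from that library. At 0.5 d the median difference was 0.01 (19 of 37 above 0) and at 7 d 0.05 (31 of 37 above 0). The absence of calls did not show that the treatments acted alike.

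Ratios between paired members were taken within each library, which removes any factor common to both genes, and are given as a description. The Sdhb to Sdha ratio was 1.38 to 1.48 in Naïve hearts. In Arrest it was 1.83 to 2.12 at 0.5 d, 1.96 to 2.33 at 1 d, 1.79 to 2.03 at 3 d and 1.37 to 1.57 at 7 d. In Adr it was 1.77 to 1.93 at 0.5 d and 1.79 to 2.41 at 1 d. All libraries of both injected groups at 0.5 and 1 d, and of Arrest at 3 d, lay above the Naïve range, and Adr at 3 d, the low library included, read 1.53 to 1.98. The Got1 to Got2 ratio was 1.58 to 2.05 in Naïve hearts, and in Arrest 2.54 to 2.70 at 0.5 d, 2.25 to 3.23 at 1 d, 1.44 to 2.18 at 3 d and 1.95 to 2.27 at 7 d. In Adr it was 2.28 to 2.84 at 0.5 d and 2.08 to 2.48 at 1 d, so that both injected groups lay above Naïve at these times. The kinase to phosphatase ratio, Bckdk to Ppm1k, was 1.38 to 2.19 in Naïve hearts. At 0.5 d it was 2.27 to 3.32 in Adr and 2.15 to 4.71 in Arrest. At 1 d it was 1.999 to 3.58 in Adr and 1.86 to 5.02 in Arrest. In both groups at 1 d replicate 4 was the low value, within the Naïve range, and the other replicates lay above that range. The Bdh1 to Oxct1 ratio was 0.0361 to 0.0720 in Naïve hearts, 0.0870 to 0.115 in Arrest and 0.0827 to 0.102 in Adr at 7 d, and 0.0869 to 0.134 in Arrest and 0.0902 to 0.152 in Adr at 0.5 d. At 1 d this ratio was 0.0614 to 0.166 in Arrest and 0.0572 to 0.0907 in Adr. At 3 d it was 0.0633 to 0.161 in Arrest and 0.0611 to 0.107 in Adr, so that all groups at 1 and 3 d overlapped Naïve. By contrast, the ratio of the 2 succinyl-CoA synthetase partners Sucla2 and Suclg2 had group means of 3.83 to 4.13.

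**Figure D5:**
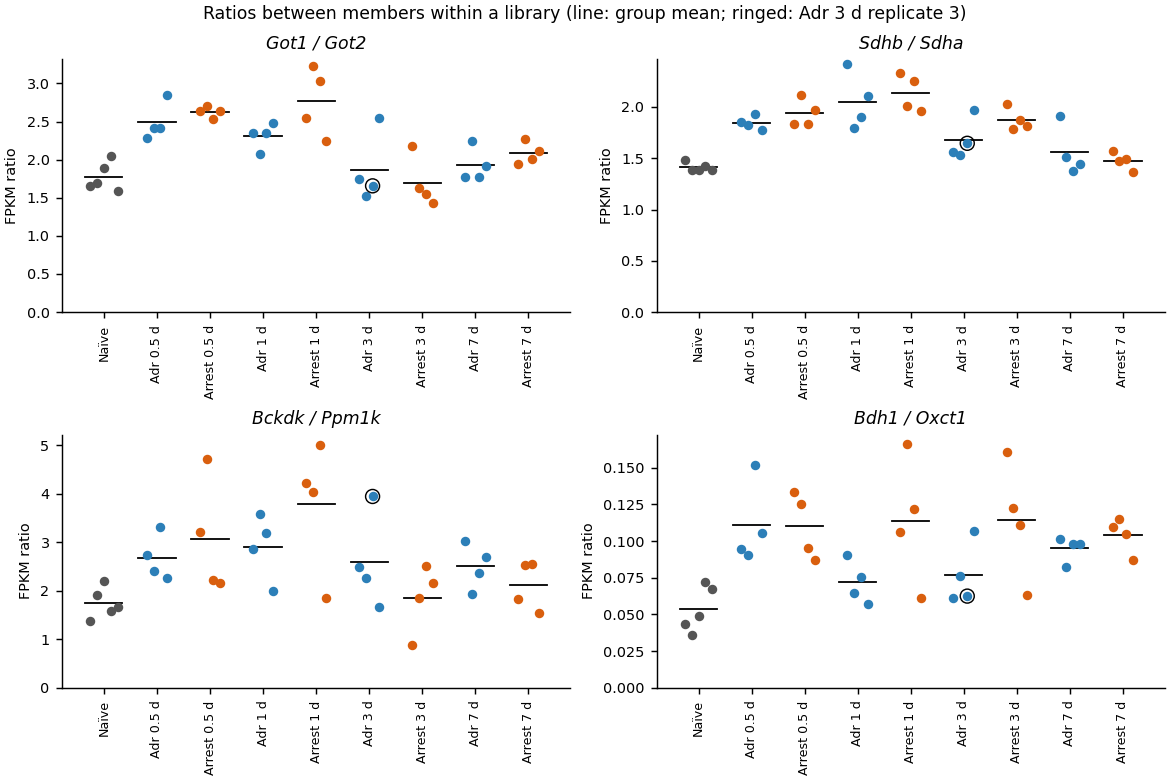
Each point is the ratio of 2 members' FPKM in 1 library, each line a group mean and the ring Adr replicate 3 at 3 d. Sdhb to Sdha lies at 1.38 to 1.48 in Naïve hearts and at 1.77 or above in every library of both injected groups at 0.5 and 1 d.

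Gene length moved with these fold changes. Members ran from 1231 bases (Sdhd) to 10952 bases (Mccc1), and across the 37 members Spearman's correlation of length with the log2 fold change was -0.55 in Arrest at 1 d and -0.51 in Adr at 1 d, with -0.27 and -0.26 across all 16530 genes. Genes share libraries, so these correlations are a description. The 18 shorter members had a median of 0.16 and the 18 longer ones -0.07 in Arrest at 1 d. Sdhb has 2239 bases and Sdha 4126, so the ratio of Sdhb to Sdha moves along the same axis. With a length trend taken out of each library, and without the low library, the calls of Got1 (0.53, adjusted p 0.0327), Ppm1k (-0.66, 0.0441) and Oxct1 (-0.53, 0.0287) in Arrest at 1 d remained. So did those of Dbt in Arrest at 0.5 d (-0.59, 0.0190), of Pcca in Arrest at 3 d (-0.61, 0.0172), and of Dbt (-0.59, 0.0416) and Pcca (-0.55, 0.0292) in Adr at 1 d. For Arrest at 1 d against 3 d, those of Got1 (0.66, 0.0343) and Acat1 (0.48, 0.0310) remained. Those of Sdhb (0.31, 0.0744), Mdh1 (0.20, 0.243) and Mccc1 (-0.29, 0.225) in Arrest at 1 d, Got1 in Arrest at 0.5 d (0.43, 0.109), and Ogdh (-0.47, 0.0597) and Mccc1 (-0.39, 0.161) in Adr at 1 d did not. Nor did those of Mdh1 for Arrest at 1 d against 3 d (0.38, 0.0692) and Sdhb against 7 d (0.32, 0.122).

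Cell makeup was read beside the results at 1 d. The 10 cardiomyocyte markers summed to 20218 to 23986 FPKM in Arrest at 1 d and 16955 to 20090 FPKM in Naïve hearts, without overlap, with 6 of 10 above 0 in log2 fold change and 0 of 10 called. Endothelial markers summed to 267 to 658 FPKM against 317 to 351 FPKM, with 3 of 8 called, 1 higher and 2 lower. Also in Arrest at 1 d, 1 of 8 smooth muscle and pericyte markers was called lower. Neutrophil markers summed to 5.81 to 19.3 FPKM against 0 to 9.74 FPKM, with 4 of 4 tested above 0 and 0 called. For macrophages and monocytes the sum was 478 to 730 FPKM against 460 to 760 FPKM, with 7 of 10 above 0 and 0 called. Red blood cell markers summed to 1564 to 1719 FPKM against 1697 to 3951 FPKM, with 5 of 5 tested below 0 and 0 called. In Adr at 1 d the cardiomyocyte sum was 16360 to 20603 FPKM, which overlapped Naïve. Fibroblast markers summed to 489 to 619 FPKM there and 361 to 474 FPKM in Naïve hearts, without overlap, with 7 of 8 above 0 and 0 called. Macrophage and monocyte markers in Adr at 1 d summed to 438 to 887 FPKM against 460 to 760 FPKM, with 10 of 10 above 0 and 0 called, and 1 of 8 smooth muscle and pericyte markers was called lower. Of the neutrophil markers 4 of 4 tested were above 0 and of the red blood cell markers 5 of 5 were below 0 in Adr at 1 d, with 0 called. Atrial markers summed to 30.0, 693, 158 and 49.3 FPKM in Adr at 1 d against 13.8 to 32.4 FPKM in Naïve hearts, with 4 of 4 tested above 0, 0 called and Bmp10 at 0 in all of these libraries. Between Arrest at 1 d and at 3 d the macrophage and monocyte sums did not overlap, at 478 to 730 FPKM and 746 to 1477 FPKM. Of these 10 markers 1 was higher at 1 d and 0 were called. Cardiomyocyte sums in Arrest at 3 d were 11369 to 20295 FPKM, which overlapped 1 d, with 6 of 10 markers higher at 1 d and 0 called. The part of these sums in the member values, those of Got1, Mdh1 and Acat1 at 1 d against 3 d included, was not tested.

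Beyond the members, 64 other genes of the same pathways were taken from a list (regulators, transporters and further enzymes), of which 63 were tested and Oxct2a was not. Of the 63, 3 were called in Arrest at 0.5 d (1 higher, 2 lower), 5 at 1 d (3 higher, 2 lower), 1 in Adr at 1 d (lower) and 4 for Arrest at 1 d against 7 d (3 higher, 1 lower), with all libraries. The test called 3.21%, 7.11%, 0.69% and 1.89% of all genes in these comparisons. Without the low library 6, 13, 6 and 9 of the 63 were called there, where it called 5.51%, 10.3%, 2.52% and 3.96% of all genes. In Arrest at 1 d Idh1, the cytosolic isocitrate dehydrogenase, was higher by 0.71 (SE 0.16, adjusted p 0.00773), at 26.6, 25.5, 31.1 and 22.0 FPKM against 15.5, 17.9, 14.7, 13.6 and 16.7 FPKM in Naïve hearts. Mpc2, a subunit of the mitochondrial pyruvate carrier, was higher by 0.73 (SE 0.20, adjusted p 0.0246), at 73.0, 69.0, 86.4 and 68.2 FPKM against 43.9, 38.5, 49.5, 48.0 and 41.2 FPKM. Slc3a2, the heavy chain of the large neutral amino acid exchanger, was higher by 0.94 (SE 0.25, adjusted p 0.0217), at 18.6, 15.4, 29.8 and 15.4 FPKM against 12.5, 11.1, 8.91, 7.44 and 8.26 FPKM. In each of the 3 genes every Arrest library at 1 d lay above every Naïve library.

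The genes lower in that list include both kinds of switch of pyruvate dehydrogenase. Pdk1, a kinase that switches pyruvate dehydrogenase off, was lower in Arrest at 1 d by -0.55 (SE 0.17, adjusted p 0.0476), at 14.3, 17.0, 16.6 and 11.8 FPKM against 22.6, 21.5, 21.9, 20.7 and 24.4 FPKM. Pdp2, a phosphatase that switches it on, was lower by -0.85 in Arrest at 0.5 d (SE 0.21, adjusted p 0.0257) and by -0.90 in Adr at 1 d (SE 0.21, adjusted p 0.0421). Its Naïve libraries read 3.62, 3.85, 3.13, 4.30 and 5.64 FPKM and the Arrest libraries at 0.5 d 1.99, 1.29, 2.11 and 1.86 FPKM. Abat, 4-aminobutyrate aminotransferase, was lower by -0.70 in Arrest at 0.5 d (SE 0.13, adjusted p 0.00321) and by -0.57 at 1 d (SE 0.13, adjusted p 0.00640), at 0.654 to 1.00 FPKM and 0.640 to 1.34 FPKM against 1.64 to 2.50 FPKM. Mcee, the methylmalonyl-CoA epimerase that follows propionyl-CoA carboxylase, was higher in Arrest at 1 d than at 7 d by 0.79 (SE 0.22, adjusted p 0.0492), at 89.2, 86.5, 106 and 92.4 FPKM against 52.9, 45.7, 65.0 and 52.2 FPKM.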

How the data were processed

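Left ventricular RNA of 37 libraries was sequenced by the authors as paired-end reads and aligned with HISAT2 2.0.5 per the labels and the study's methods. The genome build, annotation and strand setting are not given in the sources used here. The deposited table holds FPKM, which the authors computed from fragments per gene, gene length and library size. The study left out 1 Adr sample at 3 d for poor quality, and the labels do not say which. FPKM times gene length gave whole fragments for 100% of values (tolerance 0.01). Some symbols (77) were shared by more than 1 gene ID, and fragments of close gene copies may be split between them.

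Values were rescaled by median-ratio factors and analysed as log2(FPKM + 1), so that fold changes of low genes are understated. Genes that reached 0.5 FPKM in 4 or more libraries were fitted with limma 3.58.1 (R 4.3.3, eBayes with trend, 1 mean per group, all 37 libraries), with Benjamini-Hochberg adjustment over all genes tested in each of 14 comparisons and a threshold of 0.05. All tests were two-sided. Replicates are separate samples in the labels, and where they share handling the p-values measure only the spread between these samples. Members were given in full if called in any comparison, and otherwise the members with the smallest unadjusted p against Naïve up to 8 were. Other pathway genes were named if called, up to 8. The members and the gene lists were chosen with earlier results of these data known. The fit was tested on simulated data. Alternatives were no rescaling, quantile normalization, scaling by fragments on all or on nuclear genes, a pseudocount of 0.1, no filter, a filter on the mean (1 FPKM), removal of a length trend (loess, span 0.5), sample quality weights, the description number as a covariate, a replicate block, limma-voom on the recovered fragments, a fit of only the 2 groups compared, an exact permutation test, and omission of single libraries. All but the permutation test were repeated without Adr replicate 3 at 3 d, a step added after seeing the data. The permutation test was run with all libraries, on the comparison with the smallest unadjusted p of each of the 8 members chosen by that p. It gave an unadjusted p up to 0.05 in 7 of the 8. These comparisons were picked by their p on the same libraries, and several are of Adr at 3 d, so nothing is concluded from it. Promoter sequences are from RefSeq (GRCm38.p6). Python 3.11.15, pandas 2.3.3 and matplotlib 3.10.9 were used for summaries and plots.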

Additional observations from a re-analysis of the deposited data

Results flagged for a closer look

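For each member and group of 4 or 5 libraries, the highest and the lowest library were compared with the rest by Dixon's criterion at 95%. Of 333 such groups 24 stood out, where chance gives about 1 in 20. Adr replicate 3 at 3 d accounted for 8, as the lowest of its group: Acat1 at 36.1 FPKM, Bckdha at 5.26 FPKM, Idh2 at 106 FPKM, Mccc1 at 1.91 FPKM, Pcca at 4.21 FPKM, Pccb at 13.2 FPKM, Pdha1 at 51.4 FPKM and Sdhb at 114 FPKM. The other 16 came from 296 groups outside Adr at 3 d.

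In Naïve replicate 4, Bckdhb was lowest at 13.8 FPKM, Dlat lowest at 55.9 FPKM, Idh3g lowest at 126 FPKM and Pccb highest at 44.3 FPKM. Ppm1k was highest in Naïve replicate 1 at 15.7 FPKM. In Adr at 0.5 d, Dld at 81.5 FPKM and Dlst at 37.1 FPKM were lowest in replicate 3, and Got1 at 364 FPKM was highest in replicate 4. In Adr at 1 d, Mdh2 at 257 FPKM and Sdha at 225 FPKM were highest in replicate 4. In Adr at 7 d, Ppm1k at 7.58 FPKM and Sdha at 186 FPKM stood out in replicate 1, and Sdhb at 334 FPKM was lowest in replicate 3. In Arrest, Sdhd at 379 FPKM was highest in replicate 1 at 0.5 d, Ppm1k at 13.1 FPKM highest in replicate 4 at 1 d, and Idh3g at 108 FPKM lowest in replicate 2 at 7 d.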

How the results depend on the processing

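With all libraries, members called in Arrest at 1 d against Naïve numbered 2 under quantile normalization, 1 when scaled by fragments on all genes, 4 with sample quality weights and 7 with only the 2 groups compared. The last also gave 2 in Arrest and 1 in Adr at 0.5 d. Quality weights gave 1 for Arrest at 1 d against 3 d and 5 against 7 d, and medians of -0.12 for Adr at 3 d and -0.093 for Arrest against Adr at 3 d. Leaving out 1 library gave 0 to 2 (Arrest 0.5 d), 0 to 6 (Arrest 1 d), 0 to 1 (Arrest 3 d), 0 to 4 (Adr 1 d), 0 to 3 (Arrest 1 d against 3 d) and 0 to 1 (1 d against 7 d). The median went from -0.63 to -0.021 for Adr at 3 d and from -0.15 to 0.46 for Arrest against Adr at 3 d. No alternative turned the direction of a call.

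Without Adr replicate 3 at 3 d, quantile normalization called 7 (Arrest 0.5 d), 6 (Arrest 3 d), 4 (Adr 0.5 d), 11 (Adr 1 d), 1 (Arrest 1 d against 3 d) and 4 (1 d against 7 d), with medians of -0.20 (Arrest 0.5 d), -0.23 (Arrest 1 d) and -0.10 (1 d against 7 d). Scaling by fragments on all genes called 2 in Adr at 0.5 d, 2 in Adr at 1 d and 2 for 1 d against 7 d, with a median of 0.070 for Arrest against Adr at 1 d. Scaling by nuclear fragments called 2 (Arrest 3 d), 2 (Adr 0.5 d) and 7 (Adr 1 d). A pseudocount of 0.1 called 1 (Adr 0.5 d). No filter called 1 (Arrest 0.5 d), 2 (Arrest 1 d), 1 (Adr 1 d) and 0 (1 d against 7 d). A mean of at least 1 FPKM called 1 (Adr 0.5 d), 8 (Adr 1 d) and 2 (1 d against 7 d). Removing the length trend called 1 (Arrest 0.5 d), 2 (Adr 1 d) and 0 (1 d against 7 d). Quality weights called 0 (Arrest 3 d), 1 (Adr 0.5 d) and 7 (1 d against 7 d). The description number called 0 in Arrest at 0.5, 1 and 3 d, 0 in Adr at 1 d, 1 for 1 d against 3 d and 0 for 1 d against 7 d, with a median of 0.14 for Adr at 3 d. The count test on recovered fragments, limma-voom, called 2 members for 1 d against 7 d, and 992 of all genes in Arrest at 1 d with all libraries. The 2 groups alone called 0 (Arrest 3 d), 1 (Adr 0.5 d), 0 (Adr 1 d), 0 (1 d against 3 d) and 0 (1 d against 7 d). Leaving out 1 library more gave 0 to 2 (Arrest 0.5 d), 2 to 6 (Arrest 1 d), 1 to 3 (Arrest 3 d), 0 to 6 (Adr 1 d), 0 to 6 (1 d against 3 d) and 0 to 4 (1 d against 7 d). The cause of these changes was not tested.

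The replicate numbers did not pair the libraries: same-numbered libraries of different groups had deviations correlated by -0.00806 on average over 144 pairs, and others by 0.00283 over 464 pairs. With a replicate block and without that library, 0 members were called in Arrest at 0.5 d, 3 in Arrest at 1 d and 0 in Adr at 1 d. With groups of 4 and 5, replicate spread limits what can be called.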
